A study of Bos taurus with 12 samples.

Results

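Genic tiles are windows of 500 bases that the authors listed as differently methylated and annotated to a promoter, an intron, an exon or a 3' untranslated region (3' UTR). They numbered 395 of the 1227 listed tiles, chosen by the deposited annotation class alone, and the other 832 tiles were intergenic. The DNA came from the blood of 12 dairy cows, sampled once each and raised on the same farm under the same conditions. The Mastitis Susceptible Group (MSG, 6 cows) had been culled in the year after sampling for mastitis complications that were unknown when the blood was drawn. The Mastitis Resilient Group (MRG, 6 cows) was still in the herd at 1 year and had a similar spread of ages. The comparison asks whether blood methylation differed between these groups before the disease was identified. No cow was described as treated, and neither breed, parity, blood cell counts nor any batch was given.

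In mammals a methyl group on the cytosine of a CpG pair marks most of the genome. Promoters rich in CpG are mostly kept free of it when a gene is active, whereas the bodies of transcribed genes are usually well methylated. Blood holds granulocytes, lymphocytes and monocytes, each with its own methylation pattern, so a percentage from whole blood is an average over these cells. A change in the cell makeup of the blood and a change of methylation within a cell type cannot be told apart here. The enzymatic conversion reads 5-methylcytosine and 5-hydroxymethylcytosine alike, and a cow that inherited a thymine at a CpG appears unmethylated there. Whether sequence differences between cows entered these values was not tested.

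Each value is the percentage of methylated cytosines in 1 tile of 1 cow, and the depth behind it was not used. Every tile had been listed by the authors for its difference between these same cows, so the tests below rank the tiles and are no independent evidence. The lowest absolute difference in the authors' deposited table was 25 points among genic tiles, and the largest q-value was 2.23e-08. Plain differences of group means departed from those of the authors' deposited table by a median of 1.3 points and by at most 12.4, with 0 opposite signs. On this plain scale 77 genic tiles fell below 25 points, and the smallest difference, in CDK5RAP2, was 12.7 points.

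Of the 395 tiles, 333 lay in introns, 52 in promoters, 7 in exons and 3 in 3' UTRs. Neighbouring tiles start 250 bases apart and share reads, and joining those that overlapped left 328 separate regions, 266 of them a single tile. Of 67 neighbouring overlapping pairs, 10 had equal values in every cow, so counts of tiles within a gene partly repeat the same reads. None of the joined regions mixed directions. They belonged to 233 genes, 201 of which carried a symbol. Chromosome 2 held the most genic tiles, 60, followed by chromosome 9 with 40, chromosome 1 with 32, chromosome 6 with 31 and chromosome 5 with 28.

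Methylation was higher in MSG in 220 genic tiles and lower in 175, a share higher of 55.7%, beside 56.5% of the intergenic tiles. Tiles higher in MSG had a median level of 72.1% in MSG and 43.8% in MRG, and tiles lower in MSG had medians of 43.7% and 73.4%. Group means were mostly intermediate: 71.6% of genic tiles in MSG and 72.7% in MRG had a mean between 25% and 75%. The median absolute difference was 27.9 points, against a median standard deviation (SD) between cows of 18.7 points. In 261 tiles the cows of a single group spanned more than 50 points. Averaged over all genic tiles, MSG stood at 58.4% ± 2.39 and MRG at 55.5% ± 1.07 (SD, n = 6 each), means that rest on tiles selected for their difference.

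**Figure D1:**
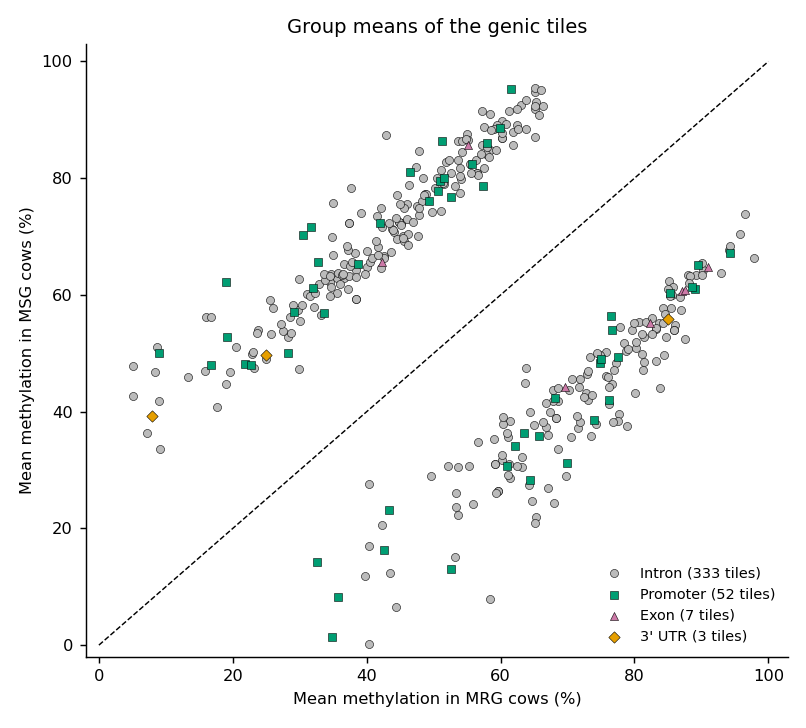
Mean methylation (%) of the 6 MSG cows against the mean of the 6 MRG cows, 1 symbol per genic tile and 1 symbol shape per annotation class; the dashed line marks equal means. The 220 tiles above the line and the 175 below it leave a gap around the line, since only tiles that differed were listed.

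With limma and a Benjamini-Hochberg adjusted p under 0.05 over the whole tile table, 298 genic tiles passed, 162 higher and 136 lower in MSG. Over all tiles 73.3% passed, 41.6% as higher and 31.6% as lower, so the genic share of 75.4% lay near the background. The intergenic share was 72.2%. The lowest adjusted p was 0.0347, shared by tiles with different unadjusted p-values, and 0 genic tiles passed at 0.01 in limma, although 326 had an unadjusted p under 0.05. An exact permutation test, adjusted in the same way, kept 83 genic tiles where 17.4% of all tiles passed, and 255 had an unadjusted exact p under 0.05. The limma count fell to 153 without MSG 1, 176 without MSG 2, 138 without MSG 3, 174 without MSG 6, 147 without MRG 1, 162 without MRG 2 and 155 without MRG 5. Of the 298 called genic tiles, 86 were called again in all 12 fits that left out 1 cow, beside 221 of the 899 called over all tiles. A call lost in such a fit can come from the spread and adjustment shared over the whole table, and not only from that cow's value in the tile. The rule for named tiles chose 72, of which 64 passed in limma and 17 of these in the exact permutation test. These 17 are given under ENOPH1, OR8B1ASP, DZIP1L, C8B (by nearest start only), THSD7B (2 tiles), CCDC60, IGSF21, MAP7, ADGRG6, DLG2, EPHB2, MGAT5, SLC9A9, ZFPM2, KCNQ1 and ENSBTAG00000054841. For the other 47 the call rests on limma alone, with exact permutation adjusted p-values of 0.0507 to 0.113.

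Among promoter tiles 27 were higher and 25 lower in MSG, and 41 of the 52 passed the limma test, 21 higher and 20 lower. Among intron tiles 189 were higher and 144 lower, and 251 of 333 passed, 139 higher and 112 lower. Of the 7 exon tiles 2 were higher, 5 lower and 4 called, and of the 3 tiles in 3' UTRs 2 were higher, 1 lower and 2 called. MSG was the higher group in 25 of 55 tiles in the first intron of a gene and in 164 of 278 tiles in later introns, a contrast that was not tested. On chromosome 1, 27 of 32 genic tiles were higher in MSG, and on chromosome 2, 23 of 60.

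The promoter tiles lay within 3 kb of an annotated start, 20 of them within 1 kb, 16 at 1 to 2 kb and 16 at 2 to 3 kb. ENOPH1, an enzyme of the methionine salvage pathway that returns the sulphur of methylthioadenosine to methionine, held the promoter tile with the least methylation in MSG. At chromosome 6, 97218251 to 97218750 (ARS-UCD1.2, 1056 bases inside the start), the MSG cows ran from 0.305% through a median of 1.39% to 2.26%. The MRG cows ran from 24.1% through 34.6% to 44.2%. No cow of a group reached the other group, a state shared by 6.03% of all tiles. The difference was -33.4 points ± 7.92 (limma adjusted p = 0.0347). Here and below, ± after a difference is the moderated SE of limma, which draws the spread of each tile towards that of all tiles. It is wider than the cows' own spread gives where they lie close, and narrower where they lie far apart. An overlapping tile ran from 4.70% to 11.8% in MSG and from 24.1% to 42.0% in MRG. An intron tile 10306 bases inside the same start was also lower in MSG, with means of 36.0% ± 8.85 (n = 6) against 67.1% ± 11.8 (n = 5), with an overlap between the groups of under 1 point. Both of these tiles had a limma adjusted p of 0.0347. The first ENOPH1 tile held 19 of the authors' single listed cytosines, the most of any genic tile.

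Promoter tiles lower in MSG included those of CD83, ARG1 and MARCHF8. CD83 encodes a surface protein of mature dendritic cells and activated B cells. Its tile, at chromosome 23, 42679251 to 42679750 and 2.77 kb before the start, ran from 0% through 17.7% to 22.1% in MSG and from 11.7% through 41.4% to 96.6% in MRG. MRG 5 and MRG 6 stood near full methylation and MRG 4 lay among the MSG cows, so the groups overlapped. The difference was -39.4 points ± 13.2 (limma adjusted p = 0.0347), a call lost without MSG 3 or MRG 5 (adjusted p up to 0.0548). MSG 2 and MSG 3 were both at 0%, and of these cows the call was lost only without MSG 3. ARG1 encodes arginase 1, the enzyme of the urea cycle that also consumes arginine in myeloid cells. At chromosome 9, 69521501 to 69522000, next to its start, the MSG cows ran from 22.2% through 56.1% to 70.0% and the MRG cows from 60.3% through 78.6% to 90.7%. MSG 6 alone lay above the lowest MRG cows. The ARG1 difference was -28.1 points (limma adjusted p = 0.0349), lost without MSG 1, MSG 3, MRG 1 or MRG 2 (adjusted p up to 0.0615). MARCHF8 encodes a membrane ubiquitin ligase that removes proteins such as MHC class II from the cell surface. Its tile ran from 15.0% through 21.5% to 54.8% in MSG and from 43.9% through 54.5% to 81.9% in MRG, with MSG 2 and MSG 5 among the MRG cows. The difference was -30.4 points ± 10.2 (limma adjusted p = 0.0347), lost without MSG 3, MRG 1 or MRG 2 (adjusted p up to 0.0528).

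The promoter tiles of LIPJ, SLCO1C1 and PRMT6 were lower in MSG as well. At LIPJ, of the acid lipase family, MSG ran from 0% through 39.0% to 62.6% and MRG from 35% through 75.6% to 94.8%. Its difference of -38.8 points ± 13.3 (limma adjusted p = 0.0347) was lost without MRG 1 or MRG 2 (adjusted p up to 0.0565). SLCO1C1 encodes a thyroid hormone transporter. At its tile MSG ran from 14.4% through 19.3% to 50% and MRG from 17.7% through 80.7% to 82.8%, with MRG 4 and MRG 5 among the MSG cows. Its difference of -36.2 points ± 12.1 (limma adjusted p = 0.0347) was lost without MRG 1 or MRG 2 (adjusted p up to 0.0511). PRMT6 encodes an arginine methyltransferase that acts on histones. Without MSG 6 and MRG 4, both at 0%, its MSG cows lay between 38.8% and 51.8% and its MRG cows between 86.8% and 91.5%. Over all 12 cows the PRMT6 difference was -35.3 points ± 14.1 (limma adjusted p = 0.0389), and the call held in 3 of the 12 fits without a cow, those without MSG 4, MSG 5 or MRG 4 (adjusted p elsewhere up to 0.0828). The ETFBKMT promoter tile, of a mitochondrial lysine methyltransferase gene, differed by -30.0 points (limma adjusted p = 0.0389) and kept its call in 4 of these fits (adjusted p elsewhere up to 0.0827).

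The promoter tile with the largest excess in MSG was that of OR8B1ASP, at chromosome 9, 104438251 to 104438750. Its MSG cows ran from 56.6% through 63.4% to 69%, and the 5 MRG cows with a value stood at 6.90%, 2.38%, 63.4%, 3.57% and 18.9%. MRG 3 alone lay among the MSG cows. The difference was 43.2 points ± 11.0 (limma adjusted p = 0.0347), called without any 1 cow. FIGLA encodes a transcription factor of the oocyte. Its tile stood at 0% or below 1% in every MRG cow except MRG 1, at 53.5%, and ran from 0% through 54.7% to 94.1% in MSG. The difference was 41.0 points ± 15.0 (limma adjusted p = 0.0358), and the call held in 6 of the 12 fits without a cow (adjusted p elsewhere up to 0.0631). TAAR3 encodes a receptor for trace amines. Its 5 MSG cows stood at 92.9%, 60.8%, 69%, 64.9% and 70.6%, and MRG ran from 0% through 29.4% to 63.5%. The TAAR3 difference was 40.0 points ± 12.8 (limma adjusted p = 0.0347), lost without MSG 1 (adjusted p = 0.0504). At the epithelial mucin MUC13 the mean was 72.3% ± 17.8 in MSG and 42.1% ± 13.1 in MRG, a difference of 30.2 points ± 9.94 (limma adjusted p = 0.0347) called by limma without any 1 cow but not by the exact permutation test (adjusted p = 0.0566).

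ACAD10, PRR13, SHROOM3 and EPHA8 completed the promoter tiles with the largest excess in MSG, with differences of 35, 28.6, 27.1 and 26.8 points. ACAD10 belongs to the acyl-CoA dehydrogenase family, SHROOM3 binds actin at cell junctions, and EPHA8 is a receptor for ephrins. Their limma adjusted p-values were 0.0379, 0.0491, 0.0369 and 0.0361, and the calls held in 3, 2, 5 and 4 of the 12 fits without a cow, with adjusted p-values elsewhere of up to 0.102. In ACAD10 and EPHA8 the low MSG cow was MSG 5, and in SHROOM3 it was MSG 4. The gene ZYG11B held promoter tiles of both directions 4 kb apart. The tile 2603 bases inside its start averaged 48.3% ± 17.0 in MSG against 74.9% ± 19.1 for MRG, and the tile 0.898 kb before the start at 56.8% ± 16.2 and 33.6% ± 17.5 (SD, n = 6 each). Both passed the limma test (adjusted p = 0.0389 and 0.0490).

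**Figure D2:**
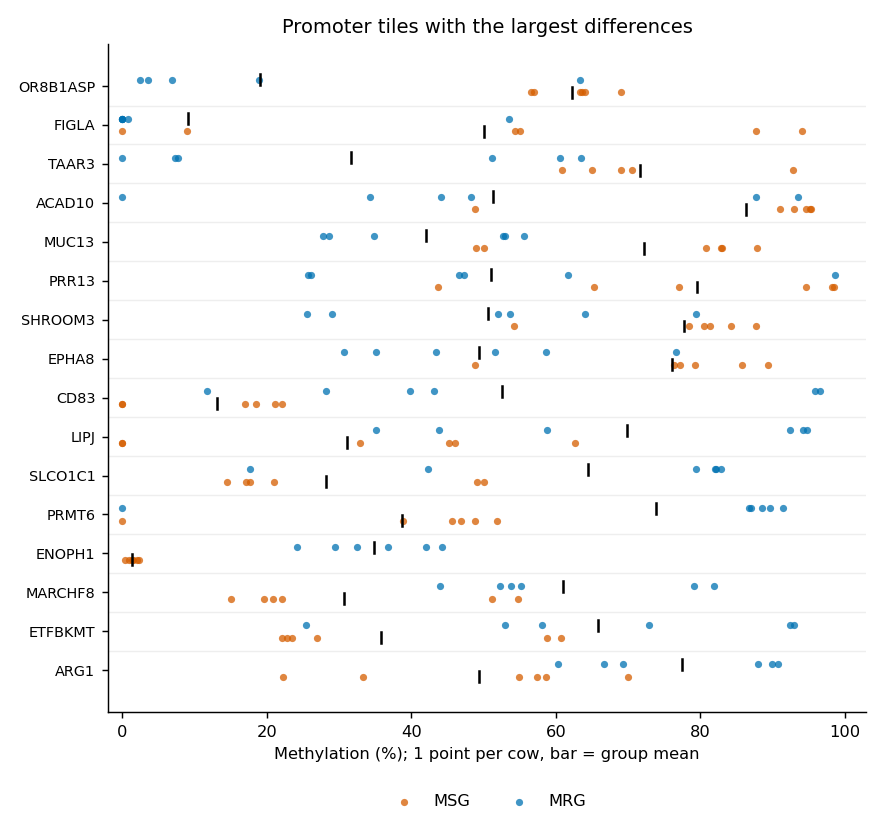
Methylation (%) of each cow in the 16 promoter tiles with the largest differences, 8 higher and 8 lower in MSG, 1 tile per gene; points are cows and bars are group means. Within most tiles the cows of a group spread widely or fall into separate levels, and in ENOPH1 all MSG cows lie at or below 2.26% while all MRG cows lie at or above 24.1%.

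Few genic tiles lay in exons or 3' UTRs. The exon tile of THSD7B, a gene for a membrane protein with thrombospondin repeats, lies at chromosome 2, 60152251 to 60152750. Its 5 MSG cows stood at 86.4%, 84.3%, 98.2%, 79.0% and 80.4%, and MRG ran from 45.5% through 52.5% to 75%, with no overlap. The difference was 30.6 points ± 9.07 (limma adjusted p = 0.0347), called without any 1 cow. DZIP1L encodes a protein of the primary cilium. In its 3' UTR tile the MRG cows all lay between 23.1% and 26.3%, and the MSG cows ran from 26.5% through 58.1% to 63.0%. The groups met within 0.190 points, since MSG 1 and MSG 4 lay close to the MRG cows. The DZIP1L difference was 24.7 points ± 8.93 (limma adjusted p = 0.0351) and was lost without MSG 2, MSG 3, MSG 6, MRG 1 or MRG 5 (adjusted p up to 0.0577).

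The 3' UTR tile whose nearest listed start is that of C8B, a gene for a chain of the complement membrane attack complex, lay beyond the listed C8B transcript. It ran from 23.2% through 57.5% to 86.5% in MSG and from 76.2% through 85.3% to 92.1% in MRG. Apart from MSG 4, every MSG cow lay below every MRG cow. The difference was -29.3 points ± 9.79 (limma adjusted p = 0.0347), called without any 1 cow. The 3' UTR tile nearest to the start of AP1M1 was at 0% in every MRG cow except MRG 5, at 47.8%, and missed the threshold (31.2 points ± 14.2; limma adjusted p = 0.0515). Exon tiles of GART, MED23 and PARD3 missed it too, with adjusted p-values of 0.0711, 0.0579 and 0.0627. The exon tile of SDAD1 passed at 0.0492 and lost its call without any of 10 cows (adjusted p up to 0.0997).

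Intron tiles held the largest differences in either direction. PCDH15, a protocadherin of the sensory hair cell, had the largest of all, in its first intron at chromosome 26, 4712751 to 4713250. It stood at 0% in every MSG cow except MSG 4, at 47.6%. In MRG it ran from 0% through 64.8% to 95.8%, and MRG 4 alone was at 0%. The difference was -50.5 points ± 14.8 (limma adjusted p = 0.0347), called by limma without any 1 cow but not by the exact permutation test (adjusted p = 0.0720). Another tile annotated to a first intron of PCDH15, at chromosome 26, 4820251 to 4820750, went the other way. In it the MSG cows with a value stood at 55.9%, 63.9%, 48.4%, 0% and 71.0%, and the MRG cows ran from 0% through 4.54% to 11.5%. That difference was 42.8 points ± 11.4 (limma adjusted p = 0.0347; exact permutation adjusted p = 0.0524), and MSG 4, the cow apart in the first tile, was also the cow apart here.

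KYNU encodes kynureninase, an enzyme of tryptophan breakdown. Its intron tile, at chromosome 2, 53801501 to 53802000, was at 0% in every MSG cow except MSG 6, at 1.08%. Of the MRG cows, MRG 1 and MRG 6 were also at 0%, and the others lay between 53.9% and 66.7%. The difference was -40.1 points ± 11.9 (limma adjusted p = 0.0347), but the exact permutation test did not call it (adjusted p = 0.0872). MAP7 encodes a microtubule binding protein. In its first intron 3 MSG cows were at 0%, the other 3 lay between 39.2% and 48.2%, and MRG ran from 43.5% through 66.1% to 85.5%. Its difference was -43.2 points ± 11.6 (limma adjusted p = 0.0347; exact permutation adjusted p = 0.0492). In TG, the thyroglobulin gene, 3 of the 5 MSG cows with a value were at 0% and the others at 45.2% and 59.7%, while MRG ran from 45.5% through 53.9% to 94.9%. Its difference was -44.2 points ± 13.4 (limma adjusted p = 0.0347; exact permutation adjusted p = 0.0637).

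IGSF21, of the immunoglobulin superfamily, had the largest difference among genic tiles whose groups did not overlap. Its MSG cows ran from 15.1% through 25.5% to 29.0%, and its MRG cows from 31.3% through 73.9% to 89.3%. MRG 1 lay within 2.32 points of the highest MSG cow. Differences of -41.4, -40.8 and -40.3 points were found in introns of FSTL5, TRHDE and NEGR1, genes of a secreted follistatin-like protein, an enzyme that degrades thyrotropin-releasing hormone and a neuronal adhesion protein. All 3 passed the limma test (adjusted p = 0.0347 each) and did so without any 1 cow, but the exact permutation test called none of them (adjusted p = 0.0524, 0.0530 and 0.0650).

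On the side higher in MSG, ASB3, CALN1, BICD1, THSD7B, ADH4, CCDC60 and BTC held the leading intron tiles beside PCDH15. BTC encodes betacellulin, a ligand of the epidermal growth factor receptor. Its tile was at 0% in every MRG cow except MRG 2, at 50.6%, and ran from 0% through 51.6% to 87.1% in MSG. The difference was 38.4 points ± 12.8 (limma adjusted p = 0.0347). BICD1 encodes an adaptor of the dynein motor. Its 5 MRG cows stood at 0%, 0%, 0%, 0% and 43.5%, and its MSG cows ran from 0% through 55.3% to 89.8%, a difference of 42.3 points ± 13.3 (limma adjusted p = 0.0347). In CCDC60, 3 of the 5 MRG cows lay at or below 1.39% and the others at 41.0% and 41.3%. The MSG cows ran from 39.7% through 49.9% to 77.6%, and the difference was 39.5 points ± 11.5 (limma adjusted p = 0.0347). The CALN1 tile, of a neuronal calcium binding protein gene, differed by 40.8 points ± 15.6 (limma adjusted p = 0.0371) and kept its call in 4 of the 12 fits without a cow (adjusted p elsewhere up to 0.0757).

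A cow at exactly 0% was found in 70 genic tiles, and 331 of the 395 had a value in all 12 cows. The authors also listed single cytosines, and 388 genic tiles held at least 1 of them, with a median of 4 per tile. All 1384 distinct listed cytosines in these tiles, at 868 CpGs, differed in the direction of their tile. Both tables came from the same reads. At 1259 of the 1384 cytosines (91.0%) some cow was at 0%, beside 78.3% of all listed cytosines.

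In 28 genic tiles, 15 higher and 13 lower in MSG, no cow of a group reached the other, which is 7.09% of the genic tiles. The same held for 6.03% of all tiles, 3.67% as higher and 2.36% as lower, so the genic share lay near the background. Without 1 cow the count was 33 to 52, since fewer cows separate more easily, and it passed 1.5 times the full count without MSG 4 (52), MSG 5 (47), MRG 2 (43) and MRG 4 (49). The tiles covered 25 regions in 22 genes, and in 20 of the 28 the nearest cows of the groups were less than 5 points apart. PROM1, HIP1, MTMR9 and ADD2 are named from this set after their values were seen. The widest gap between the groups, 23.0 points, was in an intron of PROM1, which encodes prominin 1, a membrane protein used as a stem cell marker (CD133). The MSG cows there ran from 91.3% through 96.1% to 97.6% and the MRG cows from 59.7% through 66.1% to 68.3%. The PROM1 difference was 30.5 points ± 7.68 (limma adjusted p = 0.0347; exact permutation adjusted p = 0.0422). Its spread between cows, with an SD of 2.17 in MSG and 3.15 in MRG, was far below the median SD of the genic tiles. The moderated SE of PROM1 is therefore wider than these SDs alone would give.

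ADD2 encodes beta adducin, a protein of the red cell membrane skeleton. In its intron the MSG cows ran from 84.6% through 87.5% to 92.5% and the MRG cows from 47.1% through 63.1% to 74.7%, a difference of 25.9 points ± 8.20 (limma adjusted p = 0.0347). MTMR9, of the myotubularin phosphatase family, had a promoter tile at 36.3% ± 8.38 in MSG and 63.5% ± 5.55 in MRG. An intron tile of the same gene was lower in MSG too, by -29.4 points ± 9.72 (limma adjusted p = 0.0347), a call lost without MSG 3 (adjusted p = 0.0502). HIP1 encodes a clathrin and actin binding protein. Its intron tile ran from 14.7% through 20.5% to 45.9% in MSG and from 50% through 53.3% to 70.6% in MRG. MSG 6 and MRG 1 were each the highest cow of their group there.

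Several genes held many tiles, and 29 genes held 3 or more. THSD7B had the most, 20 tiles in 15 regions over 573 kb of chromosome 2, of which 14 were higher and 6 lower in MSG and 18 passed the limma test. Its leading tile stood at 60.3% to 95.2% in the MSG cows, and at 41.4%, 28.9%, 25.5%, 62.0% and 30.3% in the 5 MRG cows with a value. MRG 4, at 62.0%, was the cow of its group among the MSG cows. The difference was 40.7 points ± 9.84 (limma adjusted p = 0.0347; exact permutation adjusted p = 0.0462). The 6 tiles lower in MSG lay in 3 regions between tiles that were higher, and MSG 4 was the highest MSG cow in 10 of the 20 tiles and MRG 4 the highest MRG cow in 11. THSD7B lies in a stretch of chromosome 2 from 53 to 64 Mb that held 32 genic tiles in 8 genes, 17 higher and 15 lower in MSG. Of these, 29 were called where 73.3% of all tiles were, and 20 of the 32 were the THSD7B tiles themselves.

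EPHB2 encodes a receptor tyrosine kinase for ephrin B ligands. All 7 of its tiles, in 3 introns over 50 kb of chromosome 2, were lower in MSG, and 6 passed the limma test. In the tile with the largest difference the MSG cows ran from 8.76% through 30.4% to 45.5% and the MRG cows from 47.1% through 61.8% to 75.3%. The difference was -32.9 points ± 9.63 (limma adjusted p = 0.0347), without overlap between the groups. MSG 1, MSG 2 and MSG 6 were the low cows there and in the intron with 3 further overlapping tiles, and in the remaining intron MSG 1 and MSG 6 were the lowest. The Pearson correlation of cows between these regions, after removal of group means, was 0.802 to 0.959 over the 12 cows.

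APP encodes the amyloid precursor protein, a membrane protein found in many tissues. All 6 of its tiles, over 117.5 kb of chromosome 1, were higher in MSG and passed the limma test. At 4 of them all 6 MRG cows lay within 19.8% and 51.0%, while MSG 1 and MSG 3 reached 75.2% or more and MSG 4 and MSG 5 lay near the MRG cows. These calls were lost in 3 to 9 of the 12 fits without a cow (adjusted p up to 0.0802). The tile nearest the end of that span differed in form. Its MSG cows ran from 81.1% through 84.0% to 91.3%, and MRG from 51.7% through 53.7% to 81.2%, with MRG 2 alone beside the MSG cows. That difference was 26.4 points ± 8.34 (limma adjusted p = 0.0347), called without any 1 cow.

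HNRNPC encodes a protein that binds nascent transcripts in the nucleus. All 6 of its tiles, in 4 regions within 14.5 kb of chromosome 10, were lower in MSG and passed the limma test. Cows kept their place across these tiles. MSG 3 was the highest MSG cow in all 6, with a lowest value of 92.5%, and MSG 4, MSG 5 and MSG 6 never exceeded 47.4%. MRG 1 and MRG 3 lay between 55.8% and 81.3%, and the other MRG cows between 84.0% and 100%. The correlation of cows between its regions was 0.944 to 0.981. The calls were lost in 4 to 10 of the 12 fits without a cow (adjusted p up to 0.0802), and the exact permutation test gave its leading tile an adjusted p of 0.0856, above the threshold. The neighbouring gene RPGRIP1 held further tiles lower in MSG in which MSG 3 was again the highest MSG cow and MRG 1 the lowest MRG cow.

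ASB3, a gene with ankyrin repeats and a SOCS box, showed the same kind of levels in the other direction. Of its 9 tiles, in 4 regions over 30.5 kb of chromosome 11, 8 were higher in MSG and passed the limma test, and 1 was lower and did not (adjusted p = 0.0683). In the 8 higher tiles MSG 5 was the lowest MSG cow and MRG 3 the highest MRG cow. In the leading tile MSG 5 stood at 44.6% and the other MSG cows at 89.5% or more. MRG 3 stood at 100% there, MRG 1 and MRG 4 at 0%, and the rest of MRG between 44.0% and 60.9%. The leading difference was 44.4 points ± 14.8 (limma adjusted p = 0.0347), lost without MRG 1 (adjusted p = 0.0531), and the exact permutation test did not call it (adjusted p = 0.0786). The other 7 calls were lost in 2 to 10 of the 12 fits (adjusted p up to 0.0866).

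NDUFAF2 encodes an assembly factor of respiratory complex I. All 4 of its tiles, over 86.3 kb of chromosome 20, were lower in MSG and passed the limma test. MRG 1 was the lowest MRG cow in each, and in the leading tile it stood at 36.4% among MSG cows that ran from 8.41% through 32.5% to 58.8%, while the rest of MRG lay between 67.9% and 79.8%. The leading difference was -34.9 points ± 10.8 (limma adjusted p = 0.0347). ADGRG6, an adhesion G protein-coupled receptor gene, had 4 tiles within 2 kb of chromosome 9, all higher in MSG and called. In the leading tile MSG 4 and MSG 5, at 60.0% and 67.1%, lay near the upper MRG cows, and the other MSG cows were at 94.6% or more. The MRG cows ran from 33.3% through 46.3% to 65.3%, and the difference was 36.8 points ± 9.79 (limma adjusted p = 0.0347).

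**Figure D3:**
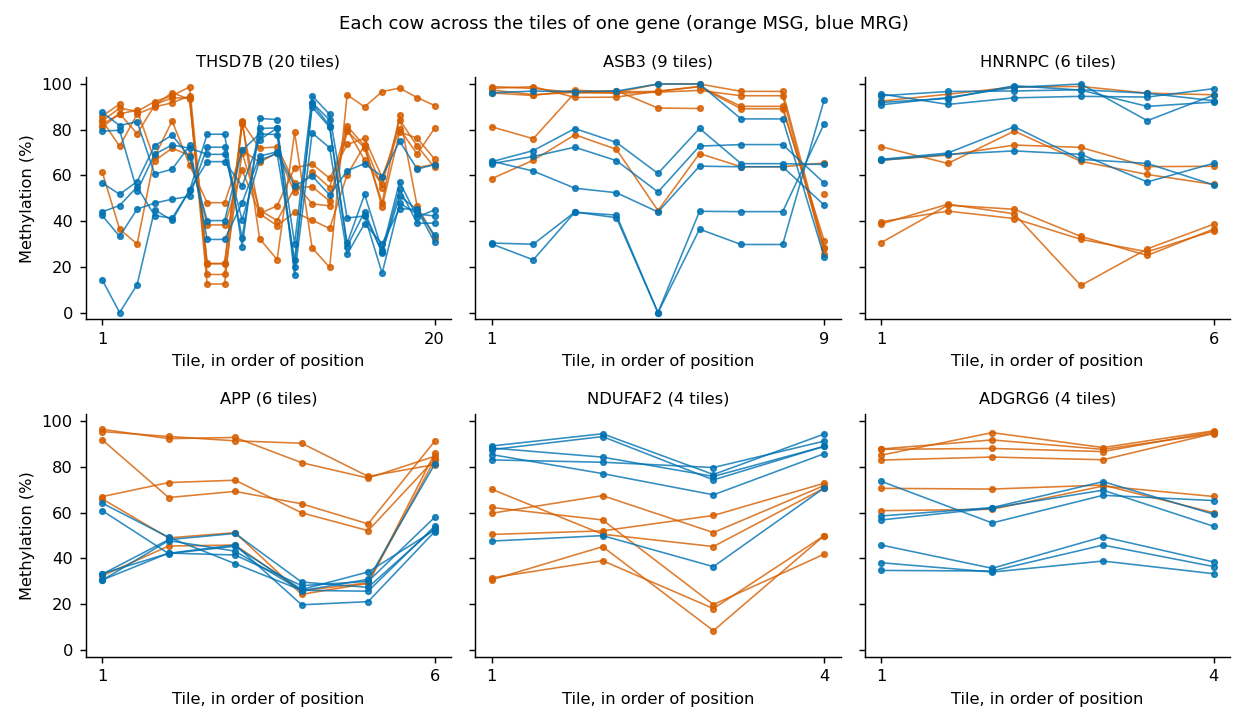
Methylation (%) of each cow across the tiles of THSD7B, ASB3, HNRNPC, APP, NDUFAF2 and ADGRG6, tiles in order of position and not to scale; each line is a cow, orange for MSG and blue for MRG. In HNRNPC MSG 4, MSG 5 and MSG 6 stay below every MRG cow and MSG 3 stays beside the highest MRG cows. In 8 of the 9 ASB3 tiles MRG 1 and MRG 4 lie below every MSG cow, and in THSD7B the group that is higher changes along the gene.

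Of the other genes with 3 or more tiles, MAPK10, BICD1, CNTN3 and ZFPM2 had 4 tiles each, all higher in MSG, of which 4, 2, 3 and 2 passed the limma test. They encode a stress kinase of the JNK family, the dynein adaptor above, a neuronal contactin and a transcriptional cofactor of GATA proteins. KCNK1 and DLG2 also had 4 tiles each, all called. In KCNK1 1 was higher and 3 lower in MSG, and in DLG2 3 were higher and 1 lower. ATG4C, ZRANB3 and MGAT5 had 3 tiles each, all lower in MSG and all called. CACNA2D3 and ENSBTAG00000054841 had 3 each, all lower, of which 2 passed. HECW2 had 3, all higher, of which 1 passed. SLC9A9, a gene for a sodium and proton exchanger of endosomes, had 4 tiles higher and 1 lower, all called. UTRN, the gene of the dystrophin homologue utrophin, had 1 tile higher and 4 lower, of which 4 passed. CD38 encodes a surface enzyme of lymphocytes that degrades NAD. Its 3 tiles were all lower in MSG and 2 passed, the leading one at 47.1% ± 18.9 in MSG and 76.9% ± 16.2 in MRG. That difference was -29.9 points ± 10.5 (limma adjusted p = 0.0347), lost without MSG 1, MSG 3, MRG 1 or MRG 2 (adjusted p up to 0.0565). In GRIN2B, a glutamate receptor subunit gene, the 3 tiles, all higher in MSG, missed the threshold with limma adjusted p-values of 0.0711 to 0.0956.

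Regions that lay close together tended to rank the cows alike where they shared a direction, and in reverse where their directions differed. After removal of the group means and with signs turned to the direction of each region, the correlation of cows between 2 regions had a median of 0.935 over 45 pairs less than 10 kb apart. It was 0.768 over 100 pairs at 10 to 100 kb, 0.405 over 180 pairs at 100 kb to 1 Mb and 0.291 over 748 pairs at 1 to 10 Mb. Farther apart it was 0.0374, and between chromosomes 0.00398. Each correlation is over 9 to 12 cows and is a description, since regions share libraries. Within a gene the median was 0.639 over 228 pairs, with exceptions such as the promoter and intron of ENOPH1 at -0.379 and the CD38 regions at 0.0363.

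**Figure D4:**
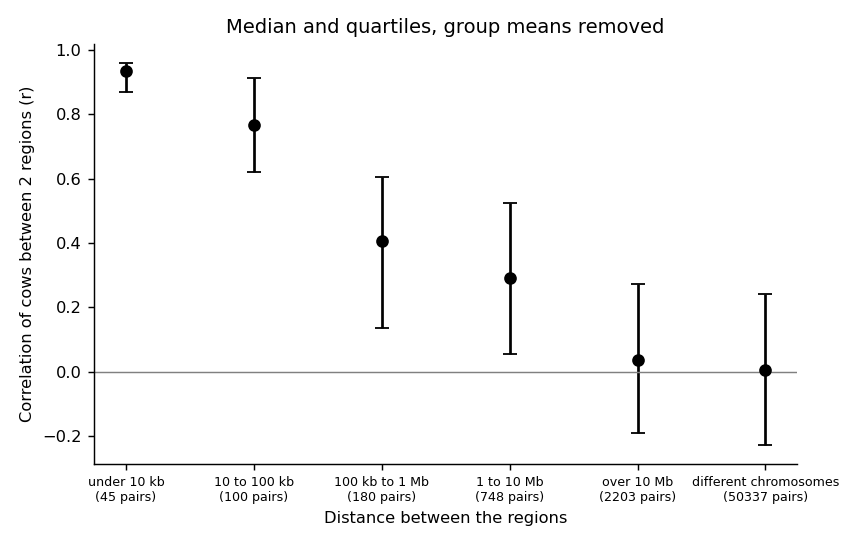
Pearson correlation of the cows with a value in both regions, for pairs of genic regions, by the distance between the regions. Group means were removed and signs turned to the direction of each region. Points are medians over pairs and bars span the quartiles. The median falls from 0.935 below 10 kb to 0.0374 beyond 10 Mb and 0.00398 between chromosomes.

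Lists of blood cell, immune and other genes, 16 in all with 833 members, were set beside the genic tiles. Of the members, 17 were given a genic tile, with 29 tiles, of which 9 were called higher in MSG, 16 called lower and 4 not called. The share of all genes with a genic tile was not counted, so nothing is read from the number of members. The tile of C8B was counted by nearest start alone and lay beyond the listed C8B transcript. These 29 tiles formed 21 regions, and 10 of them lay in EPHB2 and ENOPH1. Over all tiles 41.6% were called higher and 31.6% lower. The median difference was -26.4 points, against 24.0 over all genic tiles. Every genic tile differed by about 12.7 points or more, so a signed median mainly tells which direction held more tiles. In 7 of the 16 lists no member held a genic tile: T cell genes, NK cell genes, monocyte and macrophage genes, cytokine and chemokine genes, pattern recognition and NF-kappaB genes, chromatin genes, and mammary and milk genes. A promoter or gene body without a listed tile shows only that no tile there met the authors' thresholds.

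Among blood cell genes, ARG1 above stood for the granulocyte list, BANK1 for B cells and GYPC for red cells and platelets. BANK1, a scaffold protein of B cell receptor signalling, ran from 44.6% through 58.4% to 92.4% in MSG. In MRG, 3 cows lay below 2% and MRG 1 and MRG 3 above 84%, and the tile missed the threshold (27.9 points ± 15.7; limma adjusted p = 0.0973). GYPC encodes glycophorin C of the red cell membrane. Its first intron ran from 19.4% through 46.8% to 83.7% in MSG and from 46.1% through 84.6% to 90.9% in MRG. The GYPC difference was -28.4 points ± 11.0 (limma adjusted p = 0.0377), and the call held in 4 of the 12 fits without a cow (adjusted p elsewhere up to 0.0681).

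The list of adhesion and migration genes held 6 tiles in 5 genes, 1 called higher, 3 called lower and 2 not called, beside 41.6% and 31.6% of all tiles called higher and lower. Its median difference of -2.16 points falls between tiles of opposite directions. No tile of the list was near that value, and the smallest difference in size, in PTK2B, was 22.0 points. ARHGAP15, a Rac GTPase activating protein of leukocytes, ran from 0% through 24.9% to 75.9% in MSG and from 38.4% through 70.1% to 98.2% in MRG. Its difference of -37.8 points ± 13.2 (limma adjusted p = 0.0347) was lost without MSG 2, MSG 3, MSG 6, MRG 3 or MRG 5 (adjusted p up to 0.0571). ARHGEF3, a guanine nucleotide exchange factor, held a promoter tile and an exon tile 263.5 kb apart, both lower in MSG. The promoter tile averaged 67.2% ± 17.6 in MSG (n = 6) against 94.2% ± 2.70 for MRG (n = 5), with MSG 4 alone among the MRG cows. Its limma adjusted p was 0.0358, and the call held in 5 of the 12 fits without a cow (adjusted p elsewhere up to 0.0645). The exon tile stood at 64.7% ± 20.6 and 91.1% ± 11.4 (limma adjusted p = 0.0377, held in 5 of the 12 fits and elsewhere up to 0.0802). The cow correlation between these tiles was 0.941. ITGB5, the integrin beta 5 chain, was higher in MSG by 27.5 points ± 10.2 (limma adjusted p = 0.0361, held in 4 of the 12 fits, elsewhere up to 0.0583). PTK2B, a tyrosine kinase of focal adhesions, did not pass (limma adjusted p = 0.103).

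The receptor tyrosine kinase list held 14 tiles in ALK, EPHA8, EPHB1, EPHB2 and ROR2, 7 called higher, 6 called lower and 1 not called. These tiles formed 7 regions, and over all tiles 41.6% were called higher and 31.6% lower. The 7 EPHB2 tiles were those lower in MSG, and the tiles of the other 4 genes were all higher. ALK ran from 49.6% through 82.7% to 89.9% in MSG and from 12.4% through 32.6% to 87.5% in MRG, a difference of 35 points ± 12.4 (limma adjusted p = 0.0347) that held in 6 of the 12 fits without a cow (adjusted p elsewhere up to 0.0596). EPHB1 and ROR2 differed by 28.6 and 27.6 points (limma adjusted p = 0.0424 and 0.0423), held in 3 and 4 of these fits (adjusted p elsewhere up to 0.0810 and 0.0880). KCNQ1, a potassium channel gene that is imprinted in human and mouse, held an intron tile at 63.6% ± 11.5 in MSG and 36.5% ± 12.4 in MRG. Only MSG 6 lay among the MRG cows there, and the difference was 27.1 points ± 9.04 (limma adjusted p = 0.0347), called without any 1 cow.

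**Figure D5:**
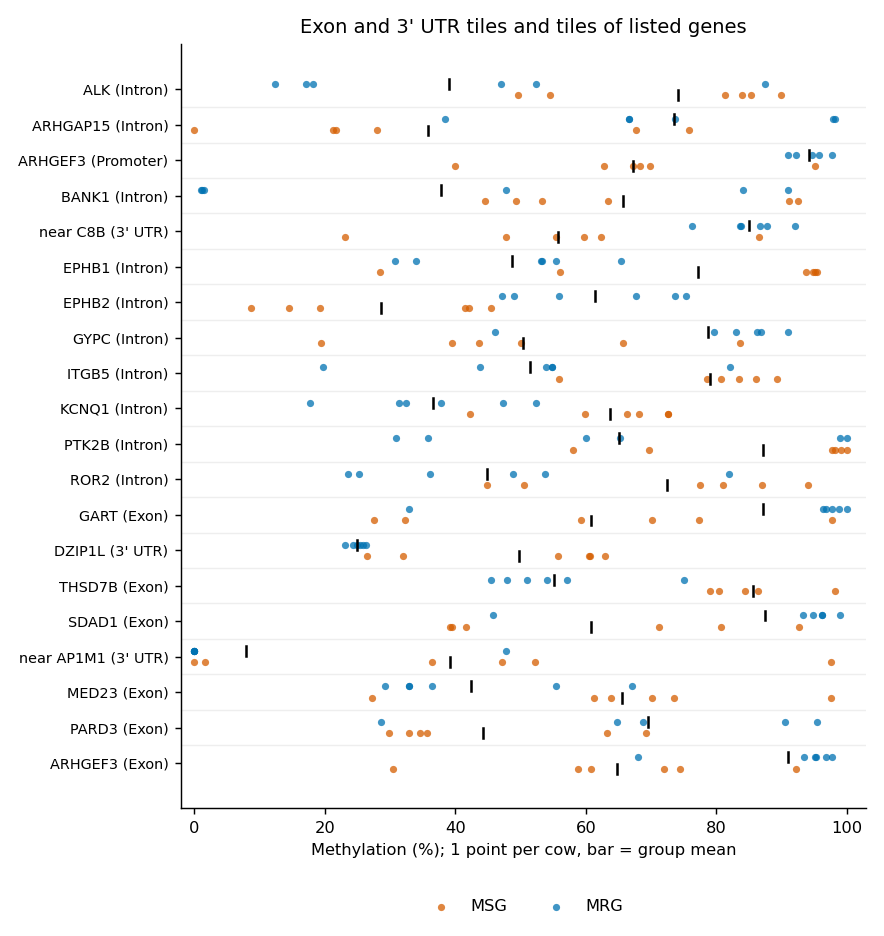
Methylation (%) of each cow in the exon and 3' UTR tiles and in the tile with the largest difference of the listed genes described here that are not in the promoter plot; points are cows, orange for MSG and blue for MRG, and bars are group means. The DZIP1L tile shows MRG cows within 23.1% and 26.3%, and the BANK1 tile shows MRG cows below 2% beside MRG cows above 84%.

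The gene names above depend on how a tile is tied to a gene. The deposited annotation names the gene with the nearest start, and for 124 of the 340 intron and exon tiles with a named holding gene (36.5%) that was another gene. The 5 tiles in APP other than the one with the largest difference carried the label LOC112448277, the exon tile in MED23 carried ARG1, the tile in KCNQ1 carried CDKN1C, and the tile in TG carried SLA. Intron and exon tiles are given here under the gene whose listed transcript they are annotated to, and promoter and 3' UTR tiles under the gene with the nearest start.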

How the data were processed

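The assay was enzymatic methylation sequencing of DNA from the blood of 12 cows (labels' protocols). The submitters' processing notes name fastp 0.23.1, Bismark, DRAGEN, ChIPseeker 1.32.1 and the build ARS-UCD1.2, with no role or order. Per the file headers, the deposited tables hold percent methylation of every tile and listed cytosine in each cow, beside the authors' p-value and q-value. Their differential test and annotation release are not given in the sources used here. Their difference in percentage points is kept as a deposited score and was used only for description. The 36 columns of coverage and read numbers were tied to no cow by name and were not used. Depth is therefore unknown, and no interval for it is given.

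All 1227 tiles were fitted together with limma 3.58.1 in R 4.3.3, as a two-sided comparison of MSG minus MRG without covariates, Benjamini-Hochberg adjusted over tiles at a threshold of 0.05. The code was tested on simulated data. A cow without a value was dropped from that tile, which applied to 64 genic tiles with 5 cows in a group. Alternatives were an exact permutation test (924 regroupings of the cows, difference of group means), whose smallest p for 6 against 6 is 0.00216, the arcsine scale, other filters and leaving out each cow. Tiles sharing at least 1 base were merged into regions.

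Members and gene lists were chosen with earlier results of these data known. Named tiles were the 8 largest differences in each direction among promoter and among intron tiles, 1 per gene and with a symbol not beginning with LOC, every exon and 3' UTR tile with a symbol, the leading tile of genes with 3 or more tiles, and the leading tile of each listed gene. One named tile is not reported here, although the counts include it. Names come from the ID and symbol pairs in the deposited tables. Cow numbers name cows within a group in record order and pair none. The p-values set the group difference against the spread between these cows, which limma partly shares over tiles. They take the cows as independent, and nothing states how the cows were related, so this could not be checked.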

Additional observations from a re-analysis of the deposited data

Results flagged for a closer look

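In 144 groups of cows, those of the named tiles, 27 held 1 cow far from the rest of its group. Chance alone marks about 1 in 20 groups when values are independent and normally spread. These tiles were chosen for large differences, share the same cows and often hold values at 0%, so nothing is read from the number of groups. Where the cow apart was from MSG, it was in PCDH15 the highest (47.6%, the others at 0.0%), in KYNU the highest (1.08%), in MGAT5 the highest (60.7%), and the lowest in ACAD10 (48.8%), SHROOM3 (54.1%), EPHA8 (48.9%), PRMT6 (0.0%), ASB3 (44.6%), CALN1 (34.4%), IGSF21 (15.1%), HECW2 (42.9%), SLC9A9 (73.4%) and ITGB5 (56.0%). MSG 6 was this cow 5 times, and MSG 4 and MSG 5 were 3 times each. Where it was from MRG, it was the highest in OR8B1ASP (63.4%), FIGLA (53.5%), AP1M1 (47.8%), BICD1 (43.5%), BTC (50.6%) and HECW2 (88.0%). It was the lowest in PRMT6 (0.0%), GART (32.9%), SDAD1 (45.8%), the exon tile of ARHGEF3 (68.0%), NEGR1 (33.9%), CACNA2D3 (54.7%), NDUFAF2 (36.4%) and GYPC (46.1%). In FIGLA, AP1M1, BICD1 and BTC the rest of MRG lay at 0% or below 1%.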

How the results depend on the processing

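No paired analysis was possible because cow numbers follow record order and pair no cows. With all 12 cows, 298 genic tiles passed the limma test, 162 higher and 136 lower in MSG, 41 in promoters and 251 in introns. The exact permutation test called 83, 49, 34, 13 and 67 of these kinds, and tiles of at least 30 points 115, 57, 58, 18 and 95. Without 1 cow the counts were 138 to 261, 62 to 149, 71 to 118, 18 to 34 and 117 to 223. At an adjusted p under 0.01 limma called 0, and within 1 kb of a start 15 promoter tiles passed. Counts stayed within 1.5 times on the arcsine scale (269) and with a trended prior (303). They also did so in the 331 tiles with all 12 cows (263), per merged region (251) and without the 70 tiles that held a cow at 0 (300). Settings that drop or merge tiles count over fewer units, so a similar count there is not a similar share. Tiles without overlap between the groups numbered 28, or 11 at 30 points or more and 33 to 52 without 1 cow. Regions numbered 328, or 102 at 30 points or more and 319 when tiles within 1 kb were joined. Of the 72 named tiles 64 passed, 28 of these without any 1 cow and 17 in the exact permutation test, and none changed direction in any alternative. The causes were not tested. Depth sets no stated limit, since read numbers were not used.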
